A study of Mus musculus with 16 samples.

Results

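Described here are 46 genes of cholesterol and fatty acid metabolism in 2 subsets of mouse splenic CD4+ T cells. They were chosen as a list of pathway genes (regulators, sterol synthesis, sterol efflux, fatty acid synthesis, acyl-CoA synthetases, fatty acid oxidation and 1 pyruvate dehydrogenase kinase), among the 47643 genes of the deposited tables. A gene entered the tests of a subset where its mean over the 8 libraries of that subset was at least 5 normalised counts. Of the 46 genes, 42 passed in CD4 and 43 in Treg, of 10426 and 11051 genes tested, and 42 passed in both.

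The series compares mice of genotype TRaGS, in which DNA binding by thyroid hormone receptor alpha is abrogated, with TRaWT littermates, to ask how signalling through this receptor affects regulatory T cells. Spleen cells of 4 animals per genotype were enriched for CD4 magnetically and sorted into CD25- CD4+ T cells, labelled naive and here named CD4, and CD25+ regulatory T cells, named Treg. Both subsets were profiled from each of the 8 animals, giving 16 libraries and 4 in each of the groups CD4 TRaWT, CD4 TRaGS, Treg TRaWT and Treg TRaGS. The labels name no treatment, age or sex, nor the cells that express the altered receptor.

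T cells obtain cholesterol by synthesis from acetyl-CoA through the mevalonate pathway or by uptake of lipoproteins. The SREBP transcription factors, held in the endoplasmic reticulum by INSIG proteins and escorted by SCAP, switch on the synthesis genes when sterols are low. Fatty acids are built from citrate by ACLY, ACACA and FASN, then elongated and desaturated, and are burned in mitochondria by beta-oxidation, whose electrons pass through the electron transfer flavoprotein. Activated effector T cells are known for synthesis and regulatory T cells for oxidation of fatty acids. Thyroid hormone receptors are known in liver as regulators of both processes.

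The libraries are 3' tag libraries, so a count is a read from the end of a transcript and is not divided by gene length; levels are given in normalised counts, each subset scaled by itself. Recovered depth was 2679119 to 5095278 reads in CD4 and 2912038 to 4154027 in Treg, and the 46 genes took 0.0994% to 0.151% and 0.108% to 0.154% of them. Their median coefficient of variation between animals was 55.8% (TRaWT) and 65.1% (TRaGS) in CD4, and 42.7% and 32.6% in Treg. The sort was visible in Foxp3, the defining regulator of Treg, at 1165 ± 65.4 and 1156 ± 199 normalised counts in Treg and 80.9 ± 38.0 and 116 ± 58.7 in CD4 (SD, n = 4, TRaWT then TRaGS). Cd8b1, a marker of CD8 T cells, was counted in all 4 groups, at group means of 212 to 234. The CD4 library of TRaGS replicate 2 stood apart: it was the deepest, 3.71% of its reads came from mitochondrial mRNA against 1.26% to 2.42% in the other CD4 libraries, and it held the lowest of the 8 CD4 values for 19 of 42 members (23.5% of all tested genes). In bulk RNA, fewer cells that express a gene and less RNA per cell cannot be told apart.

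Of the listed genes, 4 gave no test in at least one subset. Idi1 (isopentenyl diphosphate isomerase) and Fads2 (a fatty acid desaturase) are listed at 0 in all 16 libraries. No source used here says how reads that match several places were counted, so these zeros are not read as levels. Scd1, a stearoyl-CoA desaturase, fell just short of the minimum in Treg, with means of 1.42 in TRaWT and 8.54 in TRaGS. It also fell short in CD4, where its means were 4.11 and 1.00. Cpt2, the inner-membrane carnitine palmitoyltransferase, was tested in Treg and not in CD4, where its means were 4.98 and 2.22. The lowest member inside the minimum was Fdft1, squalene synthase, at 7.90 in CD4 and 9.34 in Treg. In CD4, Fads1 and Fdft1 passed only through the TRaWT libraries, as did Fdft1 in Treg, so those genes had to differ in mean.

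The genotypes were compared first over the synthesis and oxidation genes as wholes. The 22 synthesis genes (14 of sterols, 8 of fatty acids) and the 8 oxidation genes that passed in both subsets were summed in each library. In Treg the oxidation sum was 875, 881, 890 and 933 normalised counts in TRaWT replicates 1 to 4 and 1062, 1144, 1088 and 1140 in TRaGS replicates 1 to 4. All 4 TRaGS libraries thus lay above all 4 TRaWT libraries, at 1108 ± 40.0 against 895 ± 26.2 (SD, n = 4). The log2 difference of the sums was 0.31.

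In CD4 the oxidation sum was 904 ± 103 in TRaWT and 873 ± 99.4 in TRaGS, and the groups overlapped. The synthesis sum overlapped between genotypes in both subsets, at 2114 ± 367 (TRaWT) and 1910 ± 235 (TRaGS) in Treg and at 1798 ± 232 and 1780 ± 338 in CD4. These sums describe a chosen list and carry no test, and their difference between subsets was not tested either.

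Dividing the synthesis sum by the oxidation sum removes the scaling of a library. In Treg the ratio was 1.99, 2.97, 2.32 and 2.17 in TRaWT and 1.78, 1.90, 1.81 and 1.41 in TRaGS. The highest TRaGS library thus lay below the lowest TRaWT library, with a difference of -0.45 on the log2 scale against a replicate SD of 0.22. In CD4 the ratio was 2.24, 2.41, 1.44 and 1.99 in TRaWT and 2.32, 1.95, 1.92 and 1.92 in TRaGS, with overlapping groups and a log2 difference of 0.03 (replicate SD 0.25). The CD4 value depended on the measure: as a mean of log2 values per gene it was -0.23. Without members that overlap another protein-coding gene it was -0.17 in CD4 and -0.41 in Treg.

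Sterol and fatty acid synthesis were also taken separately against oxidation in Treg, with the same oxidation sum under both. The mean log2 ratio of the sterol sum to the oxidation sum was 0.08 ± 0.30 in TRaWT and -0.41 ± 0.26 in TRaGS (SD, n = 4), and that of the fatty acid synthesis sum was 0.35 ± 0.22 and -0.06 ± 0.18. Taken separately, both ratios overlapped between genotypes: the lowest TRaWT and highest TRaGS values were -0.11 and -0.10 for sterols, and 0.094 and 0.13 for fatty acids. Within animals, the synthesis to oxidation ratio was higher in Treg than in CD4 in 3 of 4 TRaWT animals (mean log2 difference 0.24 ± 0.36) and in 0 of 4 TRaGS animals (-0.24 ± 0.21; SD, n = 4). The direction in TRaGS turned when the ratio was taken as a mean of log2 values per gene (0.18), and sterol synthesis alone over oxidation was higher in Treg in 2 of 4 TRaGS animals.

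**Figure D1:**
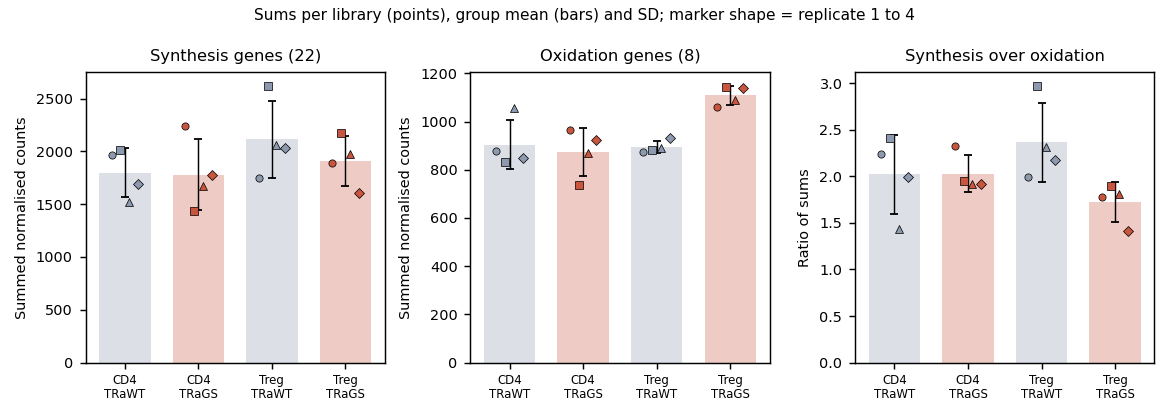
Summed normalised counts of the synthesis genes (left, 22 genes) and of the oxidation genes (middle, 8 genes), and their ratio (right), in each library; points are libraries with the marker shape giving the replicate, bars are group means and lines are SD over 4 animals. In Treg the 4 TRaGS oxidation sums lie between 1062 and 1144, above the TRaWT range of 875 to 933, while the synthesis sums overlap.

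The Treg difference in the oxidation sum was spread over several genes. Of the TRaGS minus TRaWT difference in group means, Hadha accounted for 62.3 normalised counts, Etfb for 38.6, Acadvl for 35.1, Acadl for 34.8 and Hadhb for 31.0. Etfa added 12.8, while Echs1 (0.45) and Acadm (-1.49) hardly differed. Without Hadha, the gene with the most counts, the sums ran from 459 to 634 in TRaWT and from 612 to 849 in TRaGS, so the groups overlapped. Without the members that overlap another protein-coding gene, 4 oxidation genes remained, and their sums were 257 to 325 against 344 to 440, with no overlap. The same restriction turned the direction in CD4: the log2 difference of the sums went from -0.05 with all 8 genes to 0.22 with those 4 (317 ± 131 and 346 ± 59.5, overlapping), beside 0.33 in Treg. With Cpt2 added the ranges were 876 to 955 and 1074 to 1189.

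Markers of other cells and states were measured in the same Treg libraries. Of the naive T cell markers, Ccr7 ran from 317 to 397 normalised counts in TRaWT and from 209 to 279 in TRaGS, and Igfbp4 from 184 to 226 and from 54.9 to 119, both with no overlap. Lef1 (925 to 1084 and 625 to 1017) and Tcf7 (604 to 776 and 514 to 733) overlapped. The summed level of 5 Treg markers was 6775 to 7828 in TRaWT and 7761 to 9397 in TRaGS (3 of 5 higher). As a share of reads its ranges, 0.192% to 0.245% and 0.252% to 0.287%, did not overlap. Most of that difference was Ikzf2, at means of 3751 and 5466. Tnfrsf18 (518 and 765) and Ctla4 (243 and 266) were also higher, while Foxp3 (1165 and 1156) and Il2ra (1500 and 1141) were not. For 6 activation markers the sum was 3111 to 4081 and 3604 to 4749 (3 of 6 higher). The summed level of 7 proliferation markers was 265 to 533 and 426 to 682 (4 of 7 higher), that of 6 B cell markers 44.4 to 161 and 81.6 to 256 (5 of 6 higher), and that of 5 plasma cell markers 36.2 to 105 and 54.4 to 134 (4 of 5 higher, Tnfrsf17 at 0). In CD4, Igfbp4 (1177 to 1699 in TRaWT and 573 to 948 in TRaGS) and Ikzf2 (400 to 451 and 570 to 795) also did not overlap. Ccr7 in CD4 (668 to 1049 and 679 to 1277) did. Mitochondrial mRNA took 1.41% to 2.01% of reads in TRaWT Treg and 1.34% to 1.82% in TRaGS Treg. Their part in the oxidation sum was not tested.

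Gene by gene, no member passed the genotype test in Treg: limma called 0 of 43 at an adjusted p of 0.05, where 0.959% of all tested genes were called. At an unadjusted p under 0.05 it gave 4 members (9.12% of all genes), and edgeR and DESeq2 on the recovered reads called 0 members each. The members' groups did not overlap for 2 of 43 genes, both higher in TRaGS. That is 4.65% of members against 5.07% of all genes (2.84% in that direction). Oxidation genes had a median log2 difference of 0.37 with 8 of 9 positive, sterol synthesis genes -0.25 with 9 of 14 negative, fatty acid synthesis genes 0.05 with 5 of 8 positive, and all 11051 genes 0.01. The sterol synthesis genes include Fdft1 (-1.51), which passed only through TRaWT and so had to be lower in TRaGS. Their median was not taken without it.

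The pair that did not overlap belongs to the oxidation spiral. Acadl encodes long-chain acyl-CoA dehydrogenase, which starts a round of oxidation (chromosome 1, 66830839 to 66863277, GRCm38). It was at 155, 116, 149 and 162 normalised counts in TRaWT Treg and at 168, 202, 166 and 185 in TRaGS Treg. The 4 TRaGS libraries were the 4 highest, but the log2 difference of 0.31 ± 0.25 (SE) did not pass (limma adjusted p = 0.779).

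Hadhb encodes the thiolase subunit of the mitochondrial trifunctional protein (chromosome 5, 30155248 to 30184593). It was at 67.4, 55.3, 56.0 and 68.1 in TRaWT Treg and at 78.9, 99.8, 112 and 80.5 in TRaGS Treg. Every TRaGS value again exceeded every TRaWT value, with a log2 difference of 0.57 ± 0.35 (limma adjusted p = 0.668). Hadha, the other subunit, is the neighbouring gene (30118304 to 30155162) on the opposite strand. Its values of 328, 423, 255 and 427 in TRaWT and 411, 294, 450 and 527 in TRaGS overlapped, with a log2 difference of 0.23 ± 0.20 (limma adjusted p = 0.818).

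Acadvl, very long-chain acyl-CoA dehydrogenase (chromosome 11, 70010183 to 70015411), had the smallest unadjusted p of the oxidation genes. It was at 78.1, 63.4, 77.0 and 12.9 in TRaWT Treg and at 86.4, 114, 97.0 and 73.9 in TRaGS Treg. The difference of 0.94 ± 0.43 (limma adjusted p = 0.501) drew on the low TRaWT replicate 4, and without that library it was 0.34. Etfb, the beta subunit of the electron transfer flavoprotein (chromosome 7, 43444083 to 43457800), was at 111 ± 18.1 and 150 ± 57.7, with overlapping groups. Acadm, medium-chain acyl-CoA dehydrogenase, and Echs1, enoyl-CoA hydratase, differed by -0.04 and 0.04 on the log2 scale. Cpt2 in Treg ranged from 0.822 to 22.3 in TRaWT and from 11.6 to 44.8 in TRaGS.

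**Figure D2:**
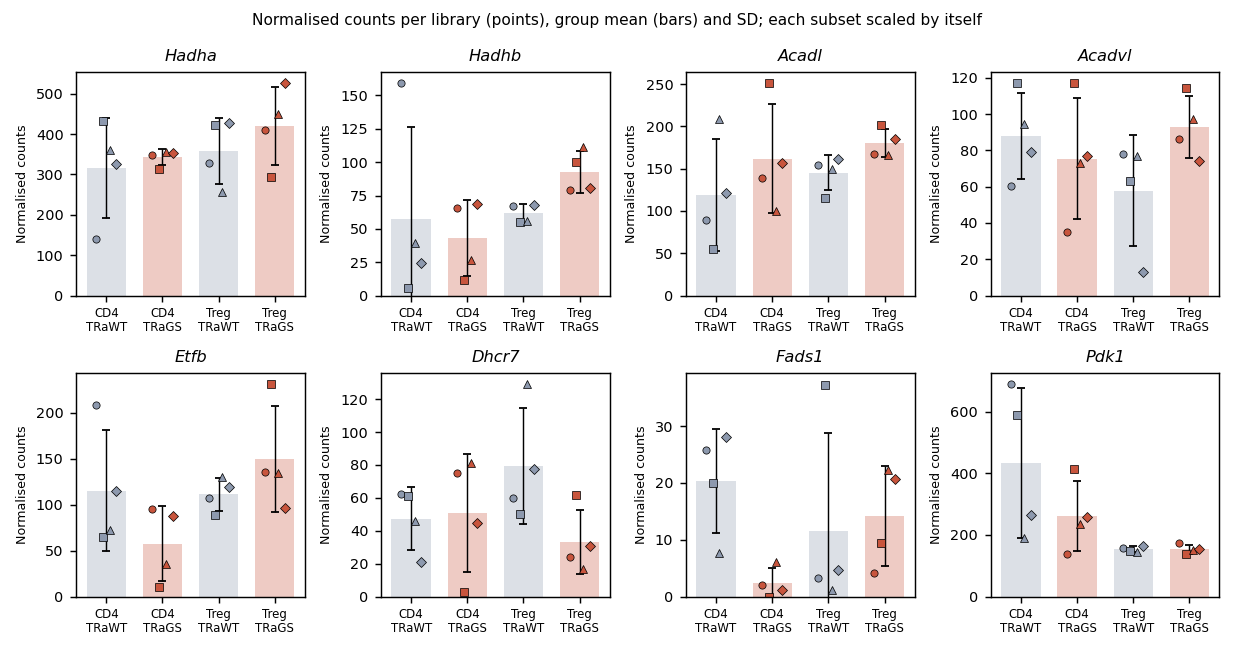
Normalised counts of 8 genes in each library, by subset and genotype; points are libraries with the marker shape giving the replicate, bars are group means and lines are SD over 4 animals, and each subset is scaled by itself. The TRaGS Treg points of Hadhb (78.9 to 112) and Acadl (166 to 202) lie above all TRaWT Treg points, and the CD4 points scatter more widely than the Treg points for Hadhb, Acadl and Pdk1.

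Among sterol synthesis genes in Treg, Dhcr7 had the smallest p of all members. It encodes 7-dehydrocholesterol reductase, which makes cholesterol in the last step of the Kandutsch-Russell route (chromosome 7, 143823145 to 143848410). Its values were 60.0, 50.3, 129 and 77.5 in TRaWT and 24.1, 61.4, 16.7 and 30.4 in TRaGS. Only TRaGS replicate 2 reached into the TRaWT range, and the log2 difference of -1.30 ± 0.47 did not pass after adjustment (limma unadjusted p = 0.00858, adjusted p = 0.305). Sc5d, the desaturase that acts just before it, was at 102 ± 63.4 and 148 ± 40.6, a difference of 0.69 ± 0.33 in the other direction (limma adjusted p = 0.526).

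The remaining sterol enzymes in Treg overlapped between genotypes. Hmgcs1, an early enzyme of the mevalonate pathway, was at 143 ± 64.7 and 129 ± 20.6. Mvk, mevalonate kinase, was at 30.0 ± 17.5 and 12.4 ± 7.67, Fdps, which makes farnesyl diphosphate, at 69.0 ± 24.7 and 45.0 ± 14.4, and Cyp51, the lanosterol demethylase, at 180 ± 53.0 and 148 ± 40.1. Values for Mvd, which makes isopentenyl diphosphate, were nearly the same (96.0 ± 55.6 and 99.5 ± 40.3). None of the 14 passed.

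Of the regulators in Treg, Srebf2, the SREBP gene most tied to cholesterol, was at 251 ± 51.9 in TRaWT and 265 ± 116 in TRaGS, a log2 difference of 0.01. Insig2, a sterol-responsive retention factor, ranged from 5.03 to 47.7 and from 22.3 to 67.2 (1.13 ± 0.66, limma adjusted p = 0.648). Scap differed by 0.39 ± 0.33 (limma adjusted p = 0.804), and Srebf1 and Insig1 by -0.53 and -0.35. The cholesterol exporters showed small differences: Abcg1 was at 99.1 ± 26.3 and 112 ± 29.9, and Abca1 at 26.4 ± 17.0 and 30.5 ± 24.9, where the sign of the Abca1 difference depended on the setting.

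Fatty acid synthesis genes in Treg also overlapped. Elovl1, an elongase of very long chains, was at 119, 253, 159 and 112 in TRaWT and 129, 65.1, 139 and 78.3 in TRaGS. Its log2 difference of -0.63 ± 0.31 (limma adjusted p = 0.528) was the lowest of the 8. Acly, ATP citrate lyase, was at 276 ± 86.7 and 215 ± 43.1 (-0.33 ± 0.23, limma adjusted p = 0.740), and Fasn, fatty acid synthase, at 193 ± 103 and 225 ± 54.7. Of the acyl-CoA synthetases, which activate fatty acids for either fate, Acsl1 and Acsl3 differed by -0.56 and -0.52, Acsl4 by -0.08 and Acsl5 by 0.21. Pdk1, a kinase that restrains the entry of pyruvate into mitochondrial acetyl-CoA, was at 154 ± 9.27 and 154 ± 15.2.

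In CD4 limma likewise called 0 of 42 members, where 0.0575% of all tested genes were called. At an unadjusted p under 0.05 it gave 1 member (5.17% of all genes), and edgeR and DESeq2 called 0 each. Groups did not overlap for 1 member, lower in TRaGS (2.38% of members, 3.16% of all genes in either direction and 1.73% lower). It was also the member at an unadjusted p under 0.05. It passed the minimum only through TRaWT, so it had to differ in mean. The SEs and p-values of CD4 come from a variance shared by genes of like level and do not measure a single gene's own spread.

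That member was Fads1, the delta-5 desaturase of polyunsaturated fatty acids (chromosome 19, 10182888 to 10196877). It was at 25.8, 20.05, 7.62 and 28.0 normalised counts in TRaWT CD4 and at 1.96, 0, 6.15 and 1.15 in TRaGS CD4, near the level of single reads. The log2 difference was -2.90 ± 1.39 (limma unadjusted p = 0.0362, adjusted p = 0.947). Because Fads1 passed the minimum in CD4 only through TRaWT, it had to differ and this test is not read. In Treg the same gene ran from 1.17 to 37.2 and from 4.15 to 22.3, with a difference of 0.94. The difference between these effects, 3.85 ± 1.55 in the fit over all libraries, did not pass (limma adjusted p = 0.622). It contains the CD4 difference that is not read.

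Sterol synthesis genes in CD4 had a median log2 difference of -0.55, with 11 of 14 negative, against -0.01 over all genes. Without the CD4 library of TRaGS replicate 2 the median was -0.26 with 9 of 14 negative. Both medians include Fdft1 (-1.18 with all libraries), which passed only through TRaWT and so had to be lower in TRaGS. They were not taken without that gene. Cyp51 shows the part of the TRaGS replicate 2 library: it was at 106, 202, 139 and 137 in TRaWT and at 132, 14.1, 127 and 91.7 in TRaGS. The difference of -1.03 ± 0.57 (limma adjusted p = 0.947) was -0.30 without that library.

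Fdps was at 75.9, 96.9, 35.9 and 35.4 in TRaWT CD4 and 4.89, 7.07, 56.4 and 57.3 in TRaGS CD4, so that 2 TRaGS libraries were far below the TRaWT range and 2 within it (-1.50 ± 0.96, limma adjusted p = 0.947). Hmgcs1 had the opposite sign, at 157 ± 40.6 and 226 ± 73.2. Fdft1 was counted in 1 of 4 libraries of each genotype.

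Oxidation genes in CD4 had a median of -0.10 with 4 of 8 positive, or 0.20 with 5 of 8 positive without TRaGS replicate 2. Etfb was at 208, 64.3, 73.0 and 115 in TRaWT CD4 and 95.8, 10.6, 35.9 and 88.2 in TRaGS CD4 (-1.25 ± 0.69, limma adjusted p = 0.947). Acadl was at 118 ± 66.1 and 162 ± 64.6, and Hadhb at 57.1 ± 69.3 and 43.2 ± 28.3. Fatty acid synthesis genes had a median of 0.04, with Fasn at 191 ± 87.2 and 190 ± 74.4 and Acly at 249 ± 35.6 and 237 ± 140. That median includes Fads1 (-2.90), which had to be lower in TRaGS. Among regulators, Srebf1 ranged from 13.4 to 35.9 and from 2.83 to 72.8 (-1.33 ± 1.24, limma adjusted p = 0.947) and Insig2 differed by -1.06 ± 1.01, while Srebf2 was at 209 ± 45.3 and 238 ± 60.7. Abca1 and Abcg1 differed by -0.70 and 0.24, Acsl3 by -0.78 and Acsl5 by 0.45.

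**Figure D3:**
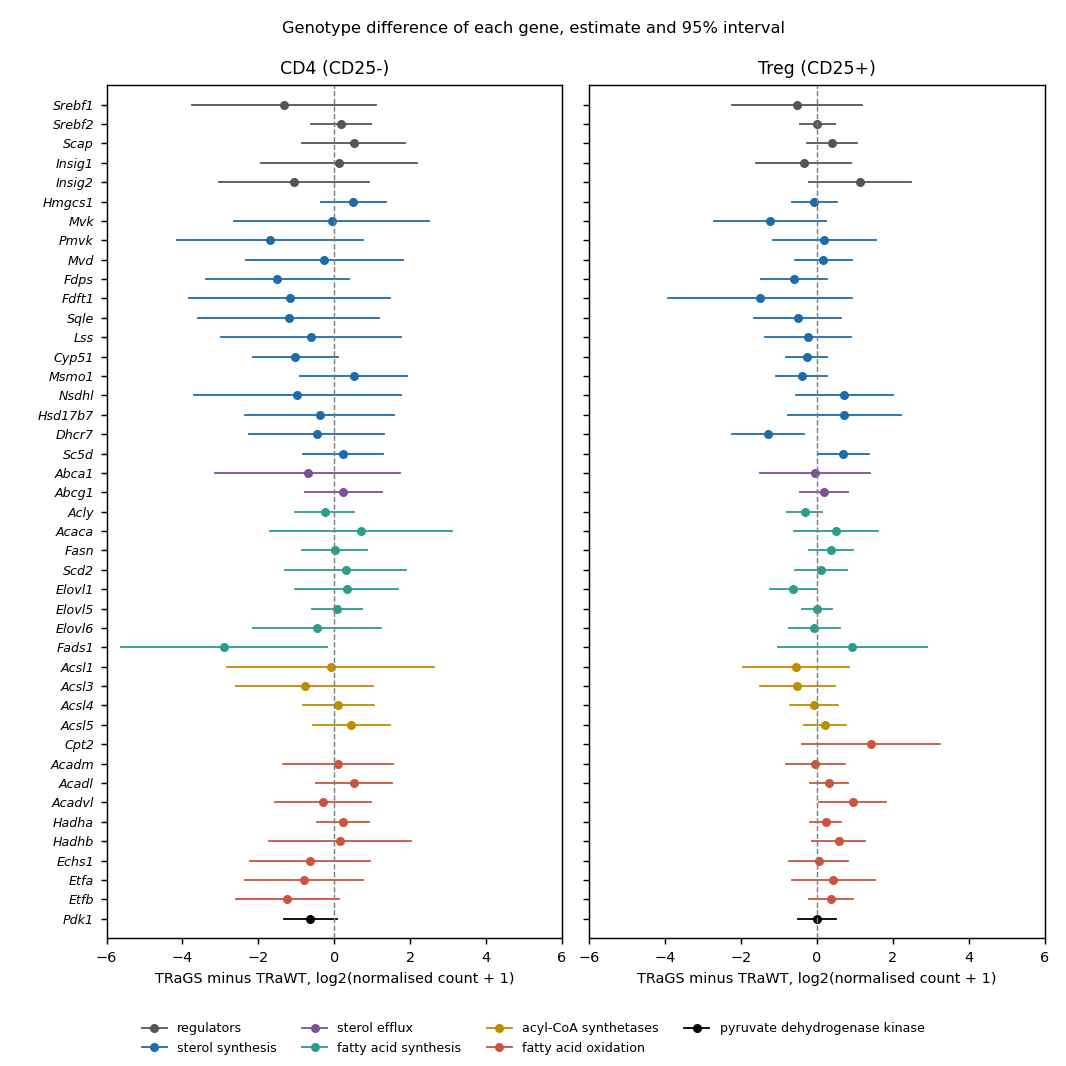
TRaGS minus TRaWT difference of each tested gene on the log2(normalised count + 1) scale in CD4 (left) and Treg (right); points are estimates, lines 95% intervals from limma, and colours the roles. No gene passes the adjusted test in either subset; in Treg 8 of 9 oxidation genes lie right of 0, and the intervals in CD4 are wider.

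The subsets were compared within animals in a fit of all 16 libraries on 1 scale, in which all genes had a median Treg minus CD4 difference of 0.09 in TRaWT and 0.19 in TRaGS. The SEs and p-values of this fit rest largely on a variance shared by genes of like level, and little on a gene's own spread. In TRaWT 1 of 43 members was called, and it was lower in Treg, where 3.24% of all genes were called (1.44% lower). It was Pdk1 (chromosome 2, 71873224 to 71903858). On the common scale its scaled reads were 730, 616, 201 and 279 in TRaWT CD4 and 146, 137, 132 and 149 in TRaWT Treg, lower in Treg in 4 of 4 animals. Pdk1 thus fell, with a Treg minus CD4 log2 difference of -1.50 ± 0.33 (limma adjusted p = 0.00153). The CD4 values of TRaWT replicates 1 and 2 were well above the others, and without either animal the call was lost (-1.22, limma adjusted p = 0.106, and -1.27, limma adjusted p = 0.0759). In TRaGS animals Pdk1 differed by -0.86 ± 0.33 and was not called (limma adjusted p = 0.0940), with 3 of 4 animals lower in Treg. Without TRaGS replicate 1 it was called (-1.19, limma adjusted p = 0.0365), and without replicate 2 it was -0.55 (limma adjusted p = 0.394). The difference between genotypes, 0.64 ± 0.47, did not pass (limma adjusted p = 0.857).

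In TRaGS 1 of 43 members was called, higher in Treg, where 8.17% of all genes were called (4.46% higher). It was Etfb, at 99.1, 11.1, 38.3 and 93.3 scaled reads in TRaGS CD4 and 126, 213, 124 and 88.9 in TRaGS Treg, with 3 of 4 animals higher in Treg. Etfb rose by 1.52 ± 0.51 (limma adjusted p = 0.0441), with differences of single animals from -0.07 to 4.14. The low CD4 value came from the library that stood apart: without TRaGS replicate 2 the difference was 0.65 (limma adjusted p = 0.511), and the call was lost in 9 of 16 alternatives. Etfb overlaps Gm45233 on the same strand, so reads of these genes may not be separable. In TRaWT Etfb differed by -0.10 between subsets, and the difference between genotypes of 1.62 ± 0.71 did not pass (limma adjusted p = 0.699).

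Several sterol genes came near the threshold in TRaGS without passing it. Mvd was higher in Treg in 4 of 4 animals of each genotype, by 1.78 ± 0.67 in TRaGS (limma adjusted p = 0.0823) and by 1.35 ± 0.67 in TRaWT (limma adjusted p = 0.343). Leaving out an animal, the TRaGS value of Mvd ran from 0.99, without TRaGS replicate 2, to 2.28. Hmgcs1 was lower in Treg in 4 of 4 TRaGS animals, by -0.95 ± 0.37 (limma adjusted p = 0.100). Without TRaGS replicate 2 its value was -1.18 and it was called (limma adjusted p = 0.0473). Cpt2 was higher in Treg in 4 of 4 TRaGS animals, by 2.90 ± 1.11 on the log2 scale. It entered this fit only through Treg, at mean scaled reads of 2.34 in TRaGS CD4 and 20.03 in TRaGS Treg, so it had to differ and its test is not read. DESeq2 called 4 of 43 members in this comparison (9.30%, where it called 13.5% of all genes), namely Mvd, Cpt2 and Nsdhl (a sterol dehydrogenase) higher in Treg and Hmgcs1 lower. Elovl5, a second elongase, was at -0.46 and -0.52 in TRaWT and TRaGS, and Acsl1 at 1.83 and 1.38, none of them called.

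By role, the sterol synthesis genes had a median Treg minus CD4 difference of 0.44 in TRaWT (10 of 14 positive) and 0.86 in TRaGS (9 of 14 positive). Fatty acid synthesis genes had 0.29 and 0.42, and oxidation genes -0.07 (3 of 8 positive) and 0.14 (6 of 8 positive), leaving out Cpt2. For the difference of the genotype effect between subsets, limma called 0 of 43 members, where 0.129% of all genes were called. At an unadjusted p under 0.05 it gave 2 (Fads1 and Etfb, against 6.58% of all genes), and edgeR and DESeq2 called 0 each. The Fads1 value contains its CD4 genotype difference, which is not read. The oxidation genes without Cpt2 had a median difference of 0.56 (6 of 8 positive) and the sterol synthesis genes of 0.45 (9 of 14 positive), against 0.03 over all genes. This contrast and the comparisons within a subset share all their libraries. The TRaGS medians between subsets and the medians of this contrast include the CD4 library that stood apart. They were not taken without it.

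**Figure D4:**
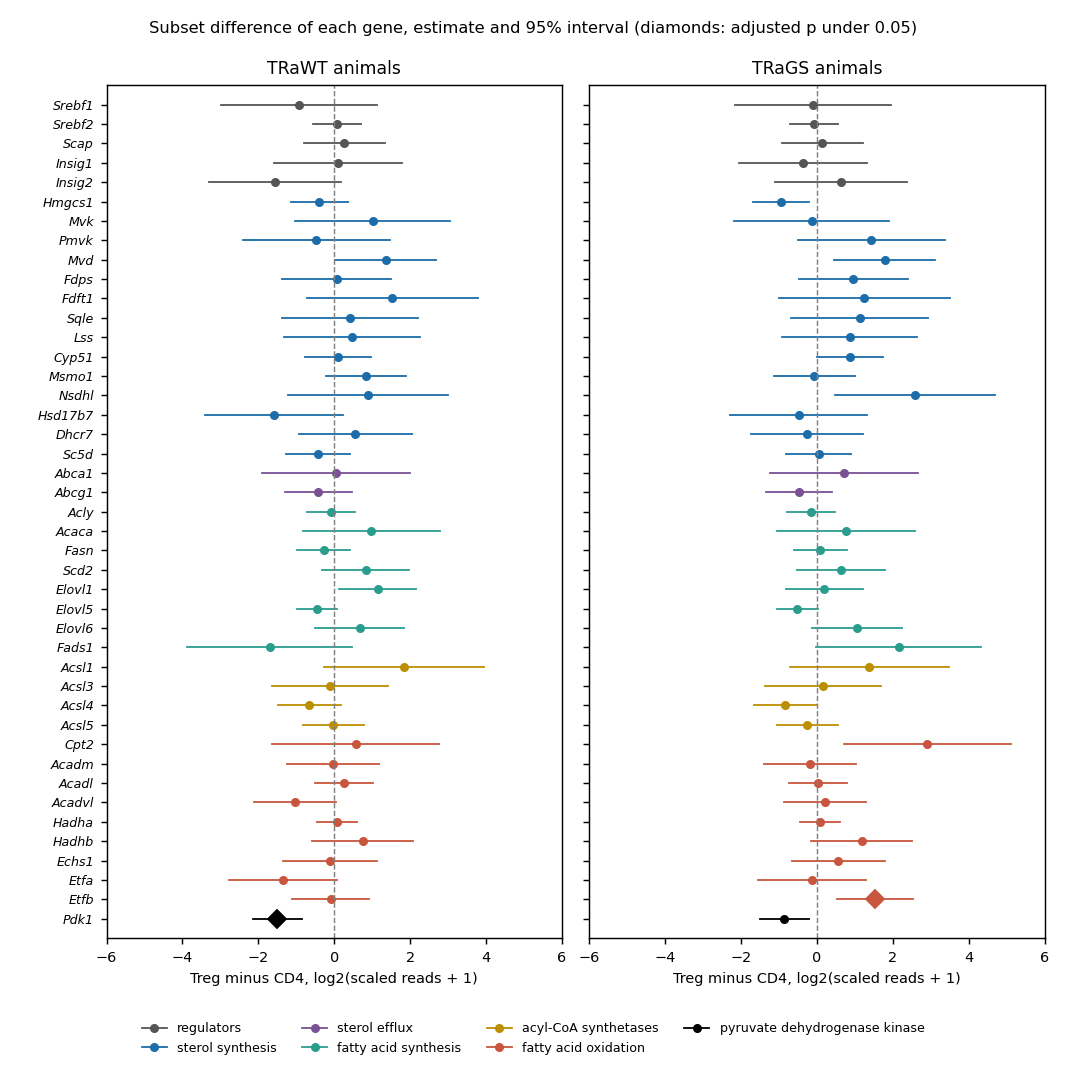
Treg minus CD4 difference of each tested gene on the log2(scaled reads + 1) scale in TRaWT (left) and TRaGS (right) animals; points are estimates, lines 95% intervals from limma, diamonds genes with an adjusted p under 0.05. Pdk1 is the only diamond in TRaWT, at -1.50, and Etfb the only one in TRaGS, at 1.52.

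A wider list of 74 other genes of the same pathways was measured beside the members. For genotype limma called 0 of 54 in CD4 and 0 of 54 in Treg, with 1 and 4 at an unadjusted p under 0.05, and edgeR and DESeq2 also called 0. Their 20 summed oxidation genes overlapped between genotypes in Treg, at 1128 to 1343 in TRaWT and 1221 to 1562 in TRaGS. Between subsets, 1 of 55 was called in TRaWT (1.82%, against 3.24% of all genes) and 6 in TRaGS (10.9%, against 8.17%). Npc2, which carries cholesterol out of lysosomes, fell in Treg in both genotypes (-0.64 ± 0.17, limma adjusted p = 0.0118, and -0.88 ± 0.17, limma adjusted p = 6.29e-05). In TRaGS Lbr, a sterol reductase of the nuclear envelope, fell by 0.90, Mylip, a ligase that degrades lipoprotein receptors, by 1.41, and Acaa2, a mitochondrial thiolase, by 1.30. Tm7sf2, another sterol reductase, rose by 4.11 from a TRaGS CD4 mean of 0.712 scaled reads, and Soat1, which esterifies cholesterol, by 1.65. In TRaWT none of Lbr, Mylip, Acaa2, Tm7sf2 and Soat1 was called, but the means moved the same way except for Tm7sf2. TRaWT means in CD4 and Treg were 726 and 475 scaled reads for Lbr and 186 and 74.6 for Mylip. They were 190 and 98.8 for Acaa2, 82.1 and 135 for Soat1, and 24.7 and 16.6 for Tm7sf2.

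In all, 13 members overlap a protein-coding gene in the annotation, 3 on the same strand (Fdps, Etfb and Acsl3) and 10 on the opposite strand, among them Hadha, Acadvl, Echs1, Mvd, Cyp51 and Elovl1. No source used here says whether counting used strand, so the values of these genes may hold reads of their neighbours.

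The altered receptor is defined by its loss of DNA binding, so the promoters of members were searched for letters tied to sterol and hormone control. RefSeq promoters (GRCm38.p6, 250 bases before to 50 after the start) matched 39 of 46 members. The half-site AGGTCA of nuclear receptors was found on either strand in 9 of 39 members (23.1%) against 18.1% of 27025 genes. The sterol element TCACNCCAC was found in 2 of 39 (Hmgcs1 and Acsl1) against 1.44%. A direct repeat of the half-site with 4 bases of any kind between its copies was in 0 of 39 against 0.0148%. Shown are the promoters of 2 members. That of Hmgcs1, an early enzyme of the mevalonate pathway, holds the sterol element. Dhcr7 was the member with the smallest p in Treg, and 1 of 3 promoters listed for it is shown. Capitals mark matches to these motifs. Both are on the plus strand, at chr13:119690101-119690400 and chr7:143822917-143823216.
Hmgcs1: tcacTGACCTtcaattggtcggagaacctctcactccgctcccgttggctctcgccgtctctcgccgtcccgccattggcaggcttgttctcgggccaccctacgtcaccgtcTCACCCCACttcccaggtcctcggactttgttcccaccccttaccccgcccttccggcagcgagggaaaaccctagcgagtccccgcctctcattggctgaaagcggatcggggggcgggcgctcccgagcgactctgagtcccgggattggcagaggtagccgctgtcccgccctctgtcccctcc
Dhcr7: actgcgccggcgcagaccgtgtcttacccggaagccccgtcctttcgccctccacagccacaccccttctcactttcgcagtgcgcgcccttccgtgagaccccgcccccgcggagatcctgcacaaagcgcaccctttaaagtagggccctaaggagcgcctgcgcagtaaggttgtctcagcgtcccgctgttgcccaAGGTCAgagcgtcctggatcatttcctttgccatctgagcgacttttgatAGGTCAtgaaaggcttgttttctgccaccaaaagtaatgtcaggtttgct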

How the data were processed

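The signal values deposited by the authors are normalised counts: in every library they are read counts over a single scaling factor, computed separately for the CD4 and the Treg table (47643 genes, 8 libraries each). The build is GRCm38 per the submitters' processing notes; no source used here names the aligner or counter. Values were whole multiples of 1 step per library within a tolerance of 0.001 (100% of values), which gave the reads back. Depth was 2679119 to 5095278 reads per library; the libraries carry no stated molecular identifiers, so counting limits cover counting error only. Gene symbols came from the reference table (47224 matched) and coordinates from GENCODE mouse release 21.

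Genotypes were compared within a table on log2(value + 1) with limma 3.58.1 under R 4.3.3, its variance trend switched on, for genes with a mean of at least 5, with Benjamini-Hochberg adjustment over all tested genes at 0.05. On that scale the changes of low genes are understated. Subsets and the difference between them were fitted with limma on reads of all 16 libraries divided by joint median-of-ratios factors, with the animal as a block; the pairing comes from the animal numbers in the labels, and deviations of the same animal correlated at -0.00311 to 0.0791. Prior degrees of freedom were infinite in CD4, 36.84 in Treg and 83.04 in the joint fit. Sums and ratios of members carry no test. In CD4 the p-values rest on the variance trend over genes. In Treg and most of all in the joint fit they also rest largely on that trend. Only a smaller part there comes from the spread of the gene between animals.

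The members and lists were chosen with earlier results of these data known. The text names members called in any comparison, the 2 members of each role with the smallest p in each comparison, and called genes of the wider list; other members named were chosen after their values were seen. Alternatives were pseudocounts of 0.5 and 5, other filters and scalings, recovered reads in edgeR 4.0.16 and in DESeq2 1.42.0, array weights, the block and its absence, leaving out each library, and the TRaGS animals of replicates 1 and 2 alone; settings for the oxidation sum and 3 for the synthesis to oxidation ratio were added after seeing the data. The scripts were tested on simulated data. Some genes of the wider and marker lists are not reported here. Figures were drawn with matplotlib 3.10.9.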

Additional observations from a re-analysis of the deposited data

Results flagged for a closer look

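In 11 of 128 groups of 4 libraries, 1 library lay far from the other 3. The rule would flag about 1 in 20 groups of normally distributed values. These groups hold counts, many of them low, and the ratios share sums. That rate therefore does not apply here, and the 11 are not read as an excess. In CD4 these were Srebf1 in TRaGS replicate 3 (72.8 normalised counts, the highest), Abca1 in TRaGS replicate 1 (61.6, the highest), Acsl1 in TRaWT replicate 1 (15.3, the highest) and Cpt2 in TRaGS replicate 4 (6.87, the highest). In the same way the log2 ratio of synthesis to oxidation was highest in CD4 TRaGS replicate 1 (1.22), as was that of fatty acid synthesis to oxidation (0.63). In Treg the libraries were Insig1 in TRaWT replicate 1 (58.4), Fdps in TRaWT replicate 2 (105.6), Fads1 in TRaWT replicate 2 (37.2) and Cyp51 in TRaGS replicate 2 (207.5), each the highest of its group, and Abcg1 in TRaWT replicate 4 (59.9), the lowest. No cause was tested.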

How the results depend on the processing

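Among 1123 alternatives to 65 results of named members, 1065 kept direction and side of the threshold, 41 reversed, 12 lost a call and 5 gained one. The causes were not tested. Most of the 65 results were not called, so keeping the side mostly means staying uncalled. Leaving out an animal of the other genotype cannot move a subset difference, so these counts do not measure stability. No setting called a member for genotype in either subset or for the difference between subsets. The replicate block across genotypes, where numbers name different animals (deviations correlated at -0.00214 to 0.0344), also called 0 members in CD4 and 0 in Treg. Members called between subsets in TRaWT went from 1 to 0 with no filter and ranged from 0 to 1 leaving out an animal. In TRaGS they went from 1 to 0 with no filter, TMM factors, edgeR or no replicate block, to 4 with DESeq2, and ranged from 0 to 2 leaving out an animal. As a mean of log2 values per gene, the ratio difference was -0.23 in CD4 and 0.18 between subsets in TRaGS. The oxidation sum difference was 0.22 in CD4 without members that overlap a protein-coding gene and 0.36 in Treg without Hadha. Reversed values in CD4 were Abcg1 with array weights (-0.043) and Acly with TRaGS replicates 1 and 2 alone (0.16). In Treg they were Abca1 with pseudocount 5 (0.013), edgeR (0.22), DESeq2 (0.21) and TRaGS replicates 1 and 2 alone (1.10), and Pdk1 with upper-quartile scaling (0.015), quantile normalisation (0.034), edgeR (0.0095), DESeq2 (0.0016), array weights (0.035) and those replicates alone (0.0055). Between subsets in TRaWT they were Abca1 with pseudocount 5 (-0.025), edgeR (-0.058) and DESeq2 (-0.032). Leaving out a library or an animal, values that reversed ranged as follows. For genotype, Acly in CD4 from -0.60 to 0.11, and in Treg Abca1 from -0.55 to 0.63, Abcg1 from -0.047 to 0.33, Acsl1 from -0.98 to 0.047 and Pdk1 from -0.061 to 0.053. Between subsets, Abca1 in TRaWT ranged from -0.89 to 0.81, and in TRaGS Abca1 from -0.26 to 1.22, Insig1 from -1.05 to 0.39 and Insig2 from -0.41 to 1.29. For the difference, Abca1 ranged from -0.31 to 1.59, Abcg1 from -0.48 to 0.27, Acsl4 from -0.54 to 0.094, Acsl5 from -0.48 to 0.059, Cyp51 from -0.14 to 1.13 and Srebf1 from -0.29 to 1.72. Depth limits the genes near single reads (Fads1, Fdft1 and Cpt2 in CD4).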
